A study of Mus musculus with 6 samples.

Results

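Hand2, its antisense neighbour Hand2os1 and the related mesenchymal basic helix-loop-helix (bHLH) genes Hand1, Twist1, Twist2 and Tcf21 were followed in mouse uterine stromal cells that lacked or kept Pbrm1. These 6 genes were taken by symbol from the 54232 genes of the count table. All 6 were found, 5 had a count in at least 1 library and an adjusted p, and Hand1 was at 0 in every library.

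The RNA came from primary uterine stromal cells (mUSCs), isolated on day 4 (D4) of pseudopregnancy from mice aged 8 to 12 weeks, and was sequenced as 3 WT and 3 Pbrm1 cKO libraries. The Pbrm1 cKO mice carried floxed Pbrm1 alleles and PR-IRES-cre, in which the progesterone receptor promoter drives Cre, so that deletion is not limited to stroma. The controls are labelled WT, whereas the methods of the study describe Pbrm1 fl/fl mice. The labels describe digestion of 5 to 10 pooled uterine horns, plating for 4 h, a medium change and a further 2 h before RNA was taken, with no added hormone or other agent named. The study calls the 3 libraries of a group biological replicates. Whether each came from a pool of its own is not given in the sources used here, and p-values measure the spread between these libraries.

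Transcription factors of the bHLH class bind the E-box, a short DNA motif, as pairs. Tissue-restricted members such as HAND2, the TWIST proteins and TCF21 pair with widely expressed E proteins, and the Id proteins, which lack a DNA-binding region, sequester those partners. In uterine stroma, Hand2 is known as a progesterone-induced gene that restrains fibroblast growth factor signaling to the epithelium, Twist1 and Twist2 are known for mesenchymal identity, and Tcf21 for fibroblast progenitors of several organs. Hand2os1 is a long noncoding RNA transcribed from the opposite strand, across a region that holds enhancers of Hand2.

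The positions of both genes on chromosome 8 (GRCm38) set what their counts can show. The Hand2 model runs from chr8:57320983-57324633 on the plus strand and has 2 exons. The Hand2os1 model runs from chr8:57281117-57324233 on the minus strand with 13 exon blocks. Of the 2351 exonic bases of Hand2, 461 (19.6%) are also exonic in Hand2os1 on the other strand, which is 3.59% of the 12840 exonic bases of Hand2os1. Counting used strand, so reads from these bases were assigned by their orientation. RefSeq places the start of Hand2os1 closer than the count table does, with 123 bases between it and the Hand2 start, and they are transcribed away from each other. The windows of 250 bases before to 50 after each start share 223 bases. The stretch before the Hand2 start (RefSeq, GRCm38.p6, chr8:57320733-57320982, plus strand) is shown because it ends at the start of Hand2 and holds the RefSeq start of Hand2os1, the 2 genes called below. The same stretch of Tcf21 (chr10:22820144-22820393, minus strand) is shown as that of a member that was not called. Capitals mark each match, on either strand, to the letters searched. These were the E-box CANNTG with its forms CATCTG as well as CATATG, the GATA factor motif GATAA, and the steroid receptor motif TGTTCT.
Hand2: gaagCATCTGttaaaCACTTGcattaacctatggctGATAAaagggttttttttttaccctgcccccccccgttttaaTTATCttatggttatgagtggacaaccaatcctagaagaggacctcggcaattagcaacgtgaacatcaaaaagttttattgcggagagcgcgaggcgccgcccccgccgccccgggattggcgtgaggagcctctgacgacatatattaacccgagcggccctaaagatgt
Tcf21: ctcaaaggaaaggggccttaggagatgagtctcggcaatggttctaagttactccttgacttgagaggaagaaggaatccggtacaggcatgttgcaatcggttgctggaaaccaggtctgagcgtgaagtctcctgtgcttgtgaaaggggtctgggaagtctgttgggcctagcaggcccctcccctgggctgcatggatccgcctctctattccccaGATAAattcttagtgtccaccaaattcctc
Promoter windows were found for 5 of the 6 genes. The Hand2 window held E-box letters at 246 and at 235 bases before the start, and the first of these, CATCTG, is also counted under CANNTG. It held GATAA letters at 214 bases before the start and, on the other strand, at 172, and the latter also lies in the window of Hand2os1. The Tcf21 window held GATAA at 30 bases before the start. The windows of Twist1 and Twist2 held none of the letters searched. Among 32851 promoter windows of the same length, 72.3% held CANNTG, 17.2% CATCTG, 3.91% CATATG, 25.4% GATAA and 19.0% TGTTCT, so these matches are descriptions and not sites.

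**Figure D1:**
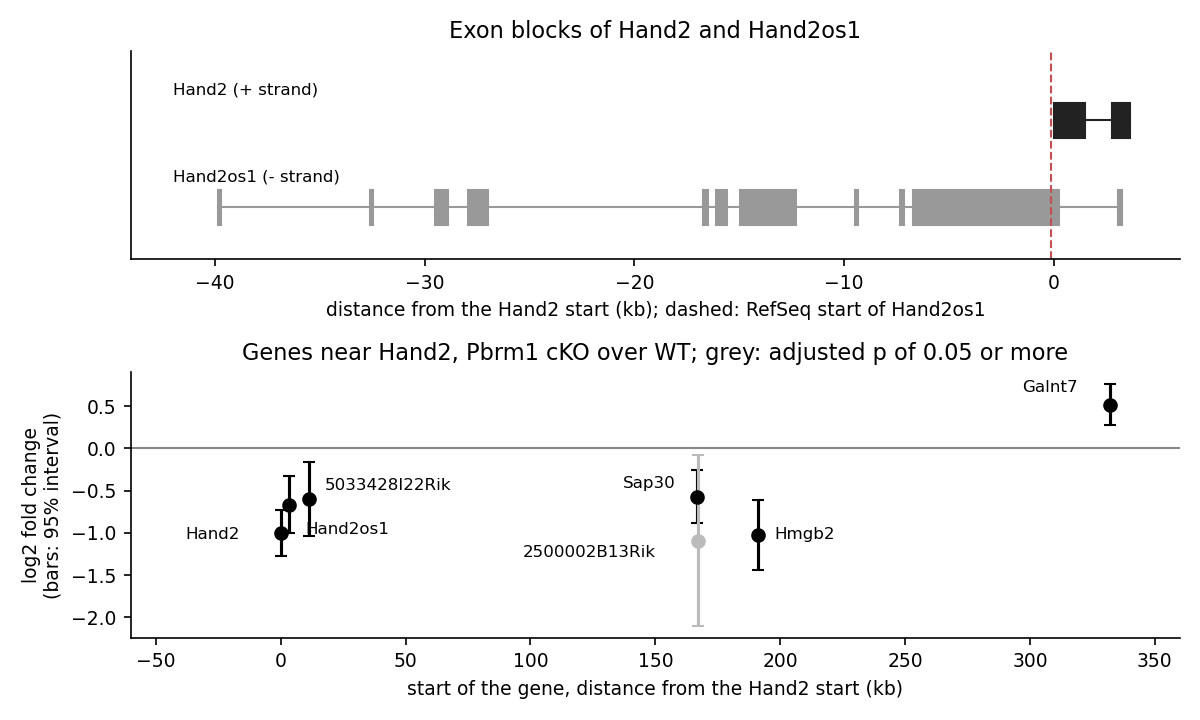
Upper panel, exon blocks of Hand2 and Hand2os1 against distance from the Hand2 start in kb. Lower panel, DESeq2 log2 fold change (Pbrm1 cKO over WT) with 95% intervals for each gene within 500 kb that had a mean normalized count of at least 10, with Hand2 itself. Hand2, Hand2os1, 5033428I22Rik, Sap30, 2500002B13Rik and Hmgb2 lie below 0, and Galnt7 lies above.

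The deleted gene checked the labels. Pbrm1 normalized counts were 1354, 1385 and 1677 in WT and 397, 459 and 451 in Pbrm1 cKO, a log2 fold change of -1.76 ± 0.13 (log2 fold changes are given with their SE, adjusted p = 5.2e-40 with DESeq2). Counts in Pbrm1 cKO were 29.6% of WT, so transcripts that the counting assigned to Pbrm1 were still present. Total counts were 13253575 to 18338667 per library. Across all genes, 5432 of 17471 tested (31.1%) passed the threshold of adjusted p under 0.05, 15.9% higher and 15.2% lower in Pbrm1 cKO.

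Hand2 fell to 49.9% of its WT level, the largest change among the 5 genes with counts. Its raw counts were 903, 671 and 703 in WT and 426, 535 and 409 in Pbrm1 cKO. As DESeq2 normalized counts these were 965, 745 and 760 against 420, 427 and 384. The lowest WT library lay well above the highest Pbrm1 cKO library, and the 3 Pbrm1 cKO libraries lay close together. The log2 fold change was -1.004 ± 0.14 (SE, 95% interval -1.28 to -0.73, adjusted p = 1.9e-11 with DESeq2). In bulk RNA, fewer cells that express a gene and less RNA per cell cannot be told apart.

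Hand2os1 fell to 63.0% of WT. Raw counts were 273, 249 and 212 in WT and 160, 199 and 198 in Pbrm1 cKO. Normalized counts were 292, 276 and 229 against 158, 159 and 186, so the groups did not overlap. The log2 fold change was -0.67 ± 0.17 (SE, 95% interval -1.002 to -0.33, adjusted p = 0.00066 with DESeq2). The call was lost when libraries were scaled on stromal markers, as described below (-0.34, adjusted p = 0.12), and in a test against a log2 fold change of 0.58.

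The Twist genes had negative fold changes that did not pass the threshold. Twist2, which encodes a repressor of differentiation in mesenchyme, had normalized counts of 861, 675 and 590 in WT and 569, 539 and 565 in Pbrm1 cKO. All 3 Pbrm1 cKO libraries lay below the lowest WT library, but by little, and WT replicate 1 was far above the other WT libraries. Its log2 fold change was -0.35 ± 0.15 (SE, 95% interval -0.64 to -0.05, adjusted p = 0.068 with DESeq2). Twist2 was called without WT replicate 3 (-0.47, adjusted p = 0.0042) and by limma voom (-0.33, adjusted p = 0.040), and stood at -0.18 without WT replicate 1. Twist1, its paralog, known for a role in mesoderm and neural crest, had 192, 205 and 161 in WT and 161, 131 and 160 in Pbrm1 cKO. The closest libraries of the groups were both at 161, and the log2 fold change was -0.31 ± 0.19 (SE, 95% interval -0.68 to 0.06, adjusted p = 0.21 with DESeq2).

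Tcf21 had the only positive fold change among the 5 genes, with no call. Normalized counts were 82.3, 84.3 and 145 in WT and 96.7, 156 and 119 in Pbrm1 cKO. The groups overlapped, since WT replicate 3 exceeded 2 of the 3 Pbrm1 cKO libraries. The log2 fold change was 0.26 ± 0.28 (SE, adjusted p = 0.56 with DESeq2), and its 95% interval, -0.30 to 0.81, covers both a modest fall and a rise. Hand1, the paralog of Hand2 known from heart and trophoblast, had 0 counts in all 6 libraries, which allows at most 0.164 to 0.226 CPM per library (3 counts of the total).

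Thus 2 of the 5 genes tested were called, both lower, beside 15.2% of all genes called lower. Under the stromal scaling described below Hand2 alone was called, beside 6.1%. In 4 of the 5 the groups did not overlap, beside 48.6% of all genes tested.

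**Figure D2:**
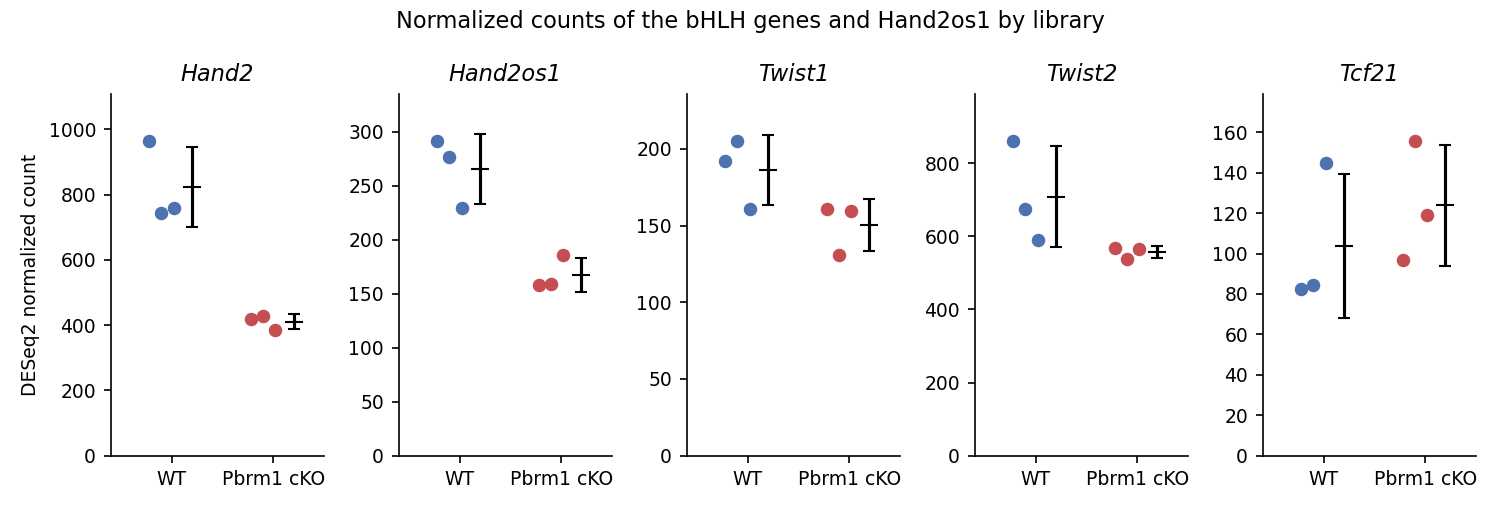
DESeq2 normalized counts of each gene with counts, by group. Points are libraries (3 per group) and bars are mean ± SD. Hand2 and Hand2os1 separate clearly, Twist1 and Twist2 narrowly, and Tcf21 overlaps.

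The order of the levels was compared per length, as TPM. In WT, Hand2 was the highest of the 5 genes in every library (79.4, 58.1 and 61.0 TPM), followed by Twist2 (52.5, 39.0 and 35.1), Twist1 (22.8, 23.1 and 18.7), Tcf21 (6.77, 6.58 and 11.6) and Hand2os1 (4.39, 3.95 and 3.37). No 2 neighbours in that order overlapped over the WT libraries. In Pbrm1 cKO, Hand2 (39.8, 39.6 and 34.2 TPM) and Twist2 (39.9, 37.0 and 37.3) overlapped and their group means were 37.9 ± 3.2 and 38.1 ± 1.6 (± SD, 3 libraries each). Twist1 (21.97, 17.5 and 20.5), Tcf21 (9.15, 14.4 and 10.6) and Hand2os1 (2.73, 2.70 and 3.03) kept their places below. Of the TPM of Hand2, Twist1, Twist2 and Tcf21 together, Hand2 took 47.7% ± 1.7 in WT and 35.2% ± 1.7 in Pbrm1 cKO, Twist2 30.3% ± 2.4 and 35.5% ± 1.2, Twist1 15.7% ± 2.2 and 18.7% ± 2.2, and Tcf21 6.20% ± 2.7 and 10.6% ± 2.5 (± SD over 3 libraries). The model lengths used are unions of exons, so a level depends on the isoforms in the annotation.

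**Figure D3:**
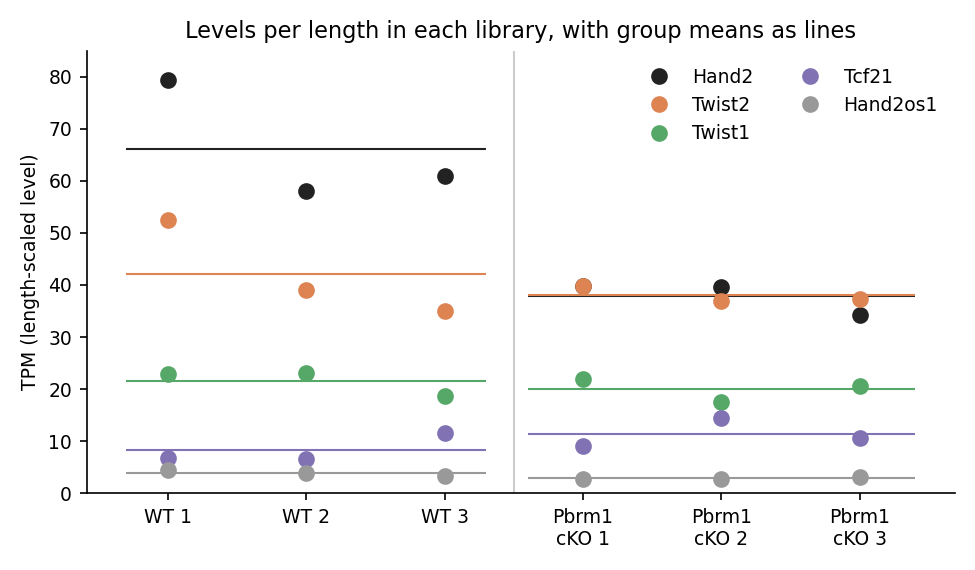
Level of each gene in TPM (a length-scaled unit) in the 6 libraries. Points are libraries and lines are group means. In WT the 5 genes keep apart, and in Pbrm1 cKO Hand2 comes down to the level of Twist2.

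Ratios within a library, which do not depend on scaling, were compared for 3 pairs. The log2 ratio of Hand2 to Hand2os1 was 1.72, 1.43 and 1.73 in WT and 1.41, 1.42 and 1.04 in Pbrm1 cKO, a mean difference of -0.33. All 3 Pbrm1 cKO libraries were below all WT libraries, by 0.0038 at the closest pair. The log2 ratio of Hand2 to Tcf21 was 3.54, 3.13 and 2.39 in WT and 2.11, 1.45 and 1.68 in Pbrm1 cKO, a mean difference of -1.27, and these groups did not overlap. The log2 ratio of Twist1 to Twist2 overlapped between groups, with means of -1.91 ± 0.23 (SD) for WT and -1.89 ± 0.13 for Pbrm1 cKO. The exact two-sided permutation p was 0.1, 0.1 and 0.8 for these pairs (0.15, 0.15 and 0.8 adjusted over the 3), where 0.1 is the smallest p that 3 against 3 can give.

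Markers of other cell types differed between the groups, and their part in the results was not tested. All 14 leukocyte markers, Ptprc (log2 fold change 1.93), Lyz2 (2.25), Cd74 (3.05) and Csf1r (2.59) among them, were called higher in Pbrm1 cKO, and their summed level was 581 to 1253 TPM in WT and 6187 to 6261 TPM in Pbrm1 cKO. Of 13 epithelial markers 4 were called higher (214 to 334 TPM summed in WT, 389 to 401 in Pbrm1 cKO). Of 10 smooth muscle markers 5 were called lower, among them Mylk (-2.04) and Acta2 (-0.97). Their sums were 4363 to 4525 TPM in WT and 4839 to 5157 TPM in Pbrm1 cKO, of which Tagln, not called (0.19 ± 0.09), made up 2871 ± 179 and 3771 ± 117 (± SD). Of 12 endothelial markers 3 were lower and 1 higher, with sums of 75.4 to 199 and 70.0 to 79.2 TPM, the lowest WT value in WT replicate 1, and 10 were lower without that library. These counts stand beside 15.9% of all genes called higher and 15.2% called lower. Without WT replicate 1, 2659 of 15590 genes tested were lower. Under the stromal scaling described below, where 34.3% of all genes were called higher and 6.1% lower, 7 epithelial markers were higher, and 1 smooth muscle marker was higher and 3 were lower. WT replicate 1, which had the highest Hand2 count, had the lowest leukocyte sum (581 TPM against 1247 and 1253 in the other WT libraries) and the lowest epithelial sum (214 against 334 and 324). Without that library Hand2 was still called lower (-0.87, adjusted p = 1.8e-11). No marker of these lists was at 0 in all libraries.

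All 11 stromal markers had counts, as did every marker of the other lists, so that having counts does not check the stromal label. The study itself stained isolated cells for vimentin and cytokeratin and reports high stromal purity. The stromal markers summed to 3438 to 4073 TPM in WT and 3237 to 3715 TPM in Pbrm1 cKO, where the leukocyte sum was higher. Of the 11, 6 were called lower and 1 higher, beside 15.2% and 15.9% of all genes. The lower ones included Thy1 (-1.21), Col1a2 (-0.93), Col1a1 (-0.69), Hoxa11 (-0.67) and Hoxa10 (-0.56). The higher one was Pdgfra (0.23), a call lost under 7 of 16 alternatives (0.078 to 0.24). Among these were leaving out WT replicate 2 (0.22), Pbrm1 cKO replicate 1 (0.19) or Pbrm1 cKO replicate 2 (0.24), and removing the trend with gene length (0.078). Without WT replicate 1, 8 stromal markers were lower and 2 higher, beside 2659 and 2841 of the 15590 genes tested in that fit. Pdgfrb, the other platelet-derived growth factor receptor, had 0.23 without a call, and was called by limma voom (0.23, adjusted p = 0.045), without WT replicate 1 (0.29) and under the scaling that follows (0.56). The median of the list was -0.27, beside 0.00 over all genes tested. Because of these differences the 6 libraries were also scaled on the 11 stromal markers alone, a choice made after the data were seen, which moved the median of all genes to 0.33 and the share of calls that were higher in Pbrm1 cKO from 51.1% to 84.9%. Of the genes tested on this scale, 34.3% were called higher and 6.1% lower. Of the stromal markers 2 were higher and 4 lower, and Hoxa10 was no longer called (-0.23). The scale was set on these same markers, so their calls on it are no check of the markers. It takes the markers as unchanged on the whole, although the study lists Hoxa10 among the genes lowered in Pbrm1 cKO. On this scale Hand2 was lower with a log2 fold change of -0.68 ± 0.14 (SE, 62.6% of WT, adjusted p = 5.6e-06 with DESeq2), and Hand2os1 stood at -0.34 ± 0.18, not called. Twist1 stood at 0.02 ± 0.19 and Twist2 at -0.02 ± 0.15, neither called, and Tcf21 at 0.58 ± 0.29 (adjusted p = 0.092). Of these 5 genes only Hand2 passed the threshold under both scalings.

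**Figure D4:**
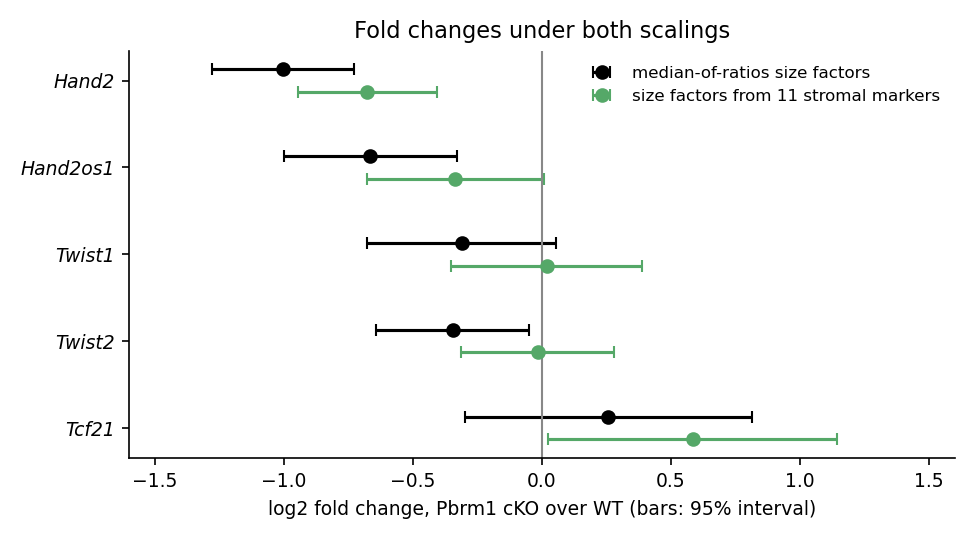
Log2 fold changes (Pbrm1 cKO over WT) of the 5 genes with counts under median-of-ratios size factors (black) and under size factors from 11 stromal markers (green), with 95% intervals from DESeq2. Hand2 lies below 0 on both scales, and Twist1 and Twist2 move to 0 on the second.

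Hand2os1 was not the only transcript near Hand2 that fell. Of 25 genes within 500 kb other than Hand2 (Hand2os1 among them), 11 were tested. Of these, Hand2os1 and 3 others were called lower and 1 was called higher, beside 15.2% and 15.9% of all genes. The noncoding RNA 5033428I22Rik, whose start lies 11.1 kb beyond the Hand2 start, had normalized counts of 151, 113 and 120 in WT and 77.9, 79.9 and 96.6 in Pbrm1 cKO (log2 fold change -0.59 ± 0.22, adjusted p = 0.028 with DESeq2). That call was lost without WT replicate 1 (-0.46, adjusted p = 0.14), without Pbrm1 cKO replicate 1 (-0.53, 0.15) or without Pbrm1 cKO replicate 2 (-0.55, 0.15). Sap30, a subunit of a histone deacetylase complex, fell by 0.57 on the log2 scale (345 ± 52 to 233 ± 18 normalized counts, SD, n = 3 each, adjusted p = 0.0026). The noncoding RNA 2500002B13Rik, whose start is 193 bases from that of Sap30 and points the other way, had -1.09 ± 0.52 without a call (adjusted p = 0.095), but was called by edgeR (-1.09, adjusted p = 0.017) and by limma voom (-1.10, adjusted p = 0.026). Hmgb2, a chromatin protein of dividing cells, was lower (148 ± 14 against 72.6 ± 5.9 normalized counts, log2 fold change -1.03 ± 0.21, adjusted p = 1.0e-05). Galnt7, an enzyme of mucin-type O-glycosylation, was higher (336 ± 13 against 481 ± 22 normalized counts, log2 fold change 0.52 ± 0.12, adjusted p = 0.00020). Under stromal scaling Hand2os1, 5033428I22Rik and Sap30 were no longer called (adjusted p = 0.12, 0.39 and 0.26 with DESeq2). Hmgb2 stayed lower and Galnt7 higher, beside 6.1% and 34.3% of all genes on that scale.

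Among the dimerization partners, each of the Id genes and only Tcf3 of the E proteins were called. Of the 7 genes, 4 were called lower and 1 higher, with a median of -0.41, beside 15.2% and 15.9% of all genes. Id3, the most abundant, had normalized counts of 5764, 5894 and 5216 in WT and 3432, 3274 and 3415 in Pbrm1 cKO (log2 fold change -0.74 ± 0.09, adjusted p = 2.1e-15 with DESeq2). Id1 had 2256, 1871 and 2014 in WT and 1209, 1175 and 1253 in Pbrm1 cKO (-0.76 ± 0.11, adjusted p = 1.9e-11). Both groups of libraries were far apart for Id1 and Id3. Id4 was lower at -0.50 ± 0.16 (adjusted p = 0.0072), and lost its call when WT replicate 2 (-0.45), Pbrm1 cKO replicate 2 (-0.48) or Pbrm1 cKO replicate 3 (-0.45) was left out. Id2 went the other way, with 633, 787 and 783 in WT and 980, 976 and 956 in Pbrm1 cKO (0.40 ± 0.12, adjusted p = 0.0039). The summed level of the 4 Id genes stood at 994 ± 59 TPM for WT and 731 ± 24 TPM for Pbrm1 cKO (± SD, 3 libraries each).

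The E proteins, the partners that Hand2 and Twist proteins bind with, were mixed. Tcf3 was called lower (log2 fold change -0.41 ± 0.12, adjusted p = 0.0025), a call lost under stromal scaling (-0.08). Tcf4 had 0.17 ± 0.11 and Tcf12 0.22 ± 0.11, neither called. Without WT replicate 1, Tcf12 passed the threshold (0.30), and without WT replicate 3 Tcf4 did (0.24). Under stromal scaling both were called higher, Tcf4 at 0.49 (adjusted p = 1.4e-05) and Tcf12 at 0.55 (adjusted p = 9.4e-07). Tcf4 changed sign when the trend with gene length was removed (-0.10). The E proteins summed to 136 ± 10 TPM for WT and 153 ± 12 TPM for Pbrm1 cKO (± SD, 3 libraries each). Under stromal scaling the fall of Id1 and Id3 and the rise of Id2 remained called, whereas Id4 did not (-0.17), so that 3 of the 7 genes were higher and 2 lower, beside 34.3% and 6.1% of all genes on that scale.

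**Figure D5:**
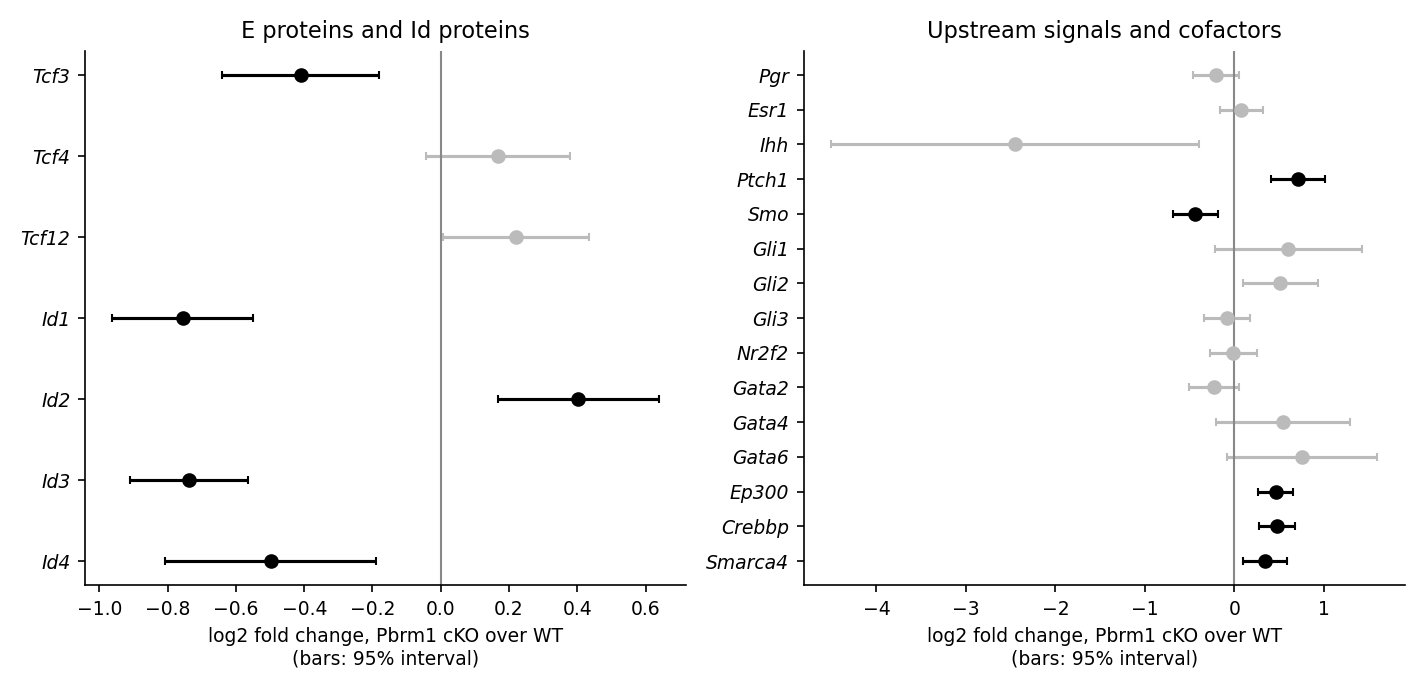
DESeq2 log2 fold changes (Pbrm1 cKO over WT) with 95% intervals of the E protein and Id genes (left) and of genes known to act upstream or as cofactors of Hand2 (right). Black, adjusted p under 0.05. Id1, Id3 and Id4 lie below 0 and Id2 above.

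Of 15 genes known to act on Hand2, 4 were called higher and 1 lower, with a median of 0.34, beside 15.9% and 15.2% of all genes. Under stromal scaling 7 were higher and none lower, beside 34.3% and 6.1%, with Esr1 (0.41), Gli2 (0.85) and Gata6 (1.09) gaining a call. Pgr, the progesterone receptor, had 7478 ± 1315 normalized counts for WT against 6481 ± 408 for Pbrm1 cKO (± SD, log2 fold change -0.21 ± 0.13, not called), and Esr1, the estrogen receptor, 4076 ± 606 and 4304 ± 146 (0.08 ± 0.12, not called). Pgr passed the threshold without WT replicate 3 (-0.30, adjusted p = 0.039) and with the trend with gene length removed (-0.34, adjusted p = 0.044), and had 0.12 without a call under stromal scaling. Along the hedgehog pathway, which carries the progesterone signal from epithelium to stroma, the receptor Ptch1 rose (281 ± 42 to 460 ± 37, 0.71 ± 0.15, adjusted p = 3.9e-05 with DESeq2). The transducer Smo fell (1411 ± 194 to 1044 ± 82, -0.43 ± 0.13, adjusted p = 0.0039), a call lost without Pbrm1 cKO replicate 3 (-0.38) and under stromal scaling (-0.11). Gli1, Gli2, Gli3 and Nr2f2 were not called (0.60, 0.51, -0.08 and -0.01), and the ligand Ihh, with a mean normalized count of 12.8 for WT against 2.3 for Pbrm1 cKO, was not called either (-2.45 ± 1.05), but was without WT replicate 1 (-2.99, adjusted p = 0.0039). Gli2 passed the threshold under 6 of 16 alternatives (0.51 to 0.85, adjusted p = 0.00046 to 0.0496), edgeR (0.52, adjusted p = 0.030) among them.

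The histone acetyltransferases Ep300 (log2 fold change 0.46 ± 0.10, adjusted p = 3.3e-05 with DESeq2) and Crebbp (0.48 ± 0.10, adjusted p = 3.0e-05) rose in Pbrm1 cKO. Smarca4, the remodeling ATPase known as BRG1, was also called higher (0.34 ± 0.13, adjusted p = 0.026), with overlapping libraries. That call was lost under 7 of 16 alternatives (0.25 to 0.34). Among these were leaving out WT replicate 2 (0.28), WT replicate 3 (0.26), Pbrm1 cKO replicate 1 (0.30) or Pbrm1 cKO replicate 2 (0.34). The GATA factors Gata2 (-0.23), Gata4 (0.54) and Gata6 (0.76) were not called.

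Of 5 genes that Hand2 is known to restrain or act through in uterine stroma, 1 was called, beside 15.9% of all genes called higher. Fgf18, a fibroblast growth factor, was at 6.4, 7.8 and 6.5 for WT against 27.6, 28.0 and 22.5 for Pbrm1 cKO in normalized counts, so that the groups were far apart at a low level (log2 fold change 1.92 ± 0.54, adjusted p = 0.0020 with DESeq2). Fgf2 (0.02 ± 0.10), Fgf1 (0.69 ± 0.45), Fgf9 (0.63 ± 0.88) and the cytokine Il15 (0.04 ± 0.38) were not called. Under stromal scaling Fgf2 was also called higher (0.34, adjusted p = 0.0024).

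Among 30 other bHLH genes of the same subfamily, 15 were at 0 in all libraries and 8 were tested, with 3 called higher and 3 lower and a median of -0.12, beside 15.9% and 15.2% of all genes. The 6 with the highest TPM were Atoh8, Msc, Tcf23, Bhlhe22, Lyl1 and Bhlha15. Msc, a repressor known as musculin, rose (152 ± 24 to 245 ± 23 normalized counts, 0.69 ± 0.18, adjusted p = 0.00098 with DESeq2). Bhlhe22 fell from 104 ± 15 to 26.6 ± 3.1 (-1.97 ± 0.29, adjusted p = 1.5e-10). Lyl1, known from blood cells, rose from 6.2 ± 2.4 to 43.5 ± 6.4 (2.82 ± 0.51, adjusted p = 4.3e-07), beside the higher leukocyte markers above, and its share in them was not tested. Bhlha15 fell (-1.64 ± 0.43, adjusted p = 0.00092). Tcf23 (0.83 ± 0.30, adjusted p = 0.019) lost its call without WT replicate 2 (0.56) or without any 1 Pbrm1 cKO replicate (0.75 to 0.89), and Atoh8 (-0.40 ± 0.16, adjusted p = 0.049) lost it under 12 of 16 alternatives, such as without WT replicate 1 (-0.25).

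Other mesenchymal transcription factors, outside the bHLH family, were called in both directions. Of 20, 17 were tested, 4 called higher and 6 lower, with a median of -0.40, beside 15.9% and 15.2% of all genes. Under stromal scaling 7 were higher and 4 lower, beside 34.3% and 6.1%. Among the 6 with the highest TPM, Snai1 (0.53 ± 0.16, adjusted p = 0.0057 with DESeq2), Prrx1 (0.45 ± 0.11, adjusted p = 0.00032) and Zeb2 (0.32 ± 0.10, adjusted p = 0.0039) were called higher. Prrx2, the paralog of Prrx1, fell (-0.87 ± 0.19, adjusted p = 4.8e-05), and so did Ebf1 (-0.74 ± 0.13, adjusted p = 5.6e-07). Wt1 was not called (0.13 ± 0.13), but was under stromal scaling (0.46, adjusted p = 0.0017). Without WT replicate 2 or Pbrm1 cKO replicate 1, Snai1 was not called (0.39 and 0.46), and Zeb2 was not called without Pbrm1 cKO replicate 1 (0.29) or replicate 2 (0.31), nor after the trend with gene length was removed (0.09).

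The genes whose profiles over the 6 libraries were most like that of each member were taken by the root mean square difference of log2(normalized count + 1), each gene centred on its mean, over 10976 genes. For Hand2 these were Fads1, Elovl6 and Fzd2 (differences of 0.05, 0.05 and 0.05), with log2 fold changes of -1.02, -0.99 and -1.05. Hand2os1 ranked 469th by likeness to Hand2 (0.23). For Hand2os1 they were Ube2s, Gm9800 and Galnt11 (0.03, 0.04 and 0.06). For Twist1 they were Cdk2ap1, Rac3 and Cebpb (0.04, 0.05 and 0.05), for Twist2 Wdr24, Pdlim5 and Cnppd1 (0.04, 0.04 and 0.05), and Twist2 ranked 855th by likeness to Twist1 (0.15). For Tcf21 they were Gm7887, Fkbp2 and Slc25a33 (0.13, 0.13 and 0.14), which were less close than those of the other members. The libraries are the same for all genes and share their 2 groups, so likeness is a description.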

How the data were processed

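Primary uterine stromal cells of 3 WT and 3 Pbrm1 cKO samples were sequenced. The authors trimmed reads with cutadapt, mapped them to GRCm38 with HISAT2 and counted them per gene with featureCounts 1.6.4, reverse-stranded (option 2), against the mouse annotation that GENCODE issued as release 18. The deposited values are raw counts, with no normalization. The labels describe random and poly(T) priming, the study's methods poly(A) selection, so the RNA classes captured are not settled. DESeq2 1.42.0 in R 4.3.3 (Wald test, all 54232 genes, default independent filtering, no covariates) gave log2 fold changes, unshrunken, of Pbrm1 cKO over WT, with Benjamini-Hochberg adjustment over all genes tested and a threshold of 0.05. All adjusted p-values are from DESeq2 unless another tool is named. TPM was computed from counts and the exonic length in the table. Ratios were log2((count + 0.5)/(count + 0.5)) per library. On simulated data with 100 of 28552 genes changed by 1 and 100 by 2 on the log2 scale, DESeq2 recovered 88 and 98 with 24 false calls. The changed genes were drawn from those above a minimum count, so the recovery does not carry over to genes of low count. Both groups were given the same spread, and the share of genes changed was far below the 31.1% called in the data. The 6 genes, the lists and the tests were chosen with earlier results of these data known. Genes named were the 6, Pbrm1, any gene of a list of up to 15, the 6 highest in TPM of a longer list, genes within 500 kb of Hand2 whose mean normalized count reached 10, and the 3 genes most like each member, among genes with a mean of at least 50. A total of 3 counts was the floor, which covers counting error only, since no molecular identifiers are described. The 95% intervals come from the DESeq2 SE and include the spread between libraries. Pairs of WT libraries differed by a median chi-square of 3.7 to 8.0 times its value under sampling noise. For pairs of Pbrm1 cKO libraries it was 1.5 to 2.5, whereas DESeq2 fits 1 spread per gene to both groups. Alternatives were edgeR 4.0.16, limma 3.58.1 voom, other scalings, filters and call rules, a replicate block, and leaving out each library.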

Additional observations from a re-analysis of the deposited data

How the results depend on the processing

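Hand2 was called lower under all 16 alternatives (log2 fold change -1.07 to -0.68), and Hand2os1 under 14. Hand2os1 lost its call in the test against 0.58 (-0.67) and under size factors from the 11 stromal markers (-0.34), a scaling chosen after seeing the data that also turned Twist1 to 0.019. Twist2 was called by limma voom (-0.33). The genes called higher and lower were 1665 and 1452 under the call rule that the study states (fold above 1.5, p under 0.01, adjusted p under 0.1). They were 699 and 563 in the test against 0.58 (adjusted p under 0.1), and 6172 and 1098 under stromal scaling. These call rules are stricter by construction, and for the other changes the cause was not tested. The study itself reports far fewer genes than its stated rule gave here, with numbers close to those of the test against 0.58. The reason was not tested.

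Leaving out each library gave -1.07 to -0.87 for Hand2, -0.77 to -0.59 for Hand2os1, -0.41 to -0.22 for Twist1, -0.47 to -0.18 for Twist2, 0.06 to 0.57 for Tcf21, -1.81 to -1.65 for Pbrm1, 1924 to 2926 genes higher and 1801 to 2659 lower. The log2 ratio difference ranged from -0.43 to -0.21 for Hand2 to Hand2os1, -1.59 to -1.01 for Hand2 to Tcf21, and -0.10 to 0.12 for Twist1 to Twist2, which changed sign without WT replicate 1, Pbrm1 cKO replicate 1 or Pbrm1 cKO replicate 3. A pseudocount of 1 changed no ratio's direction.

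Genes that were not called changed sign as follows. Under stromal scaling these were Pgr (0.12), Gli3 (0.24), Nr2f2 (0.32), Gata2 (0.10), Cdk2ap1 (0.051), Cebpb (0.12) and Wdr24 (0.037). With the trend with gene length removed they were Tcf4 (-0.10), Esr1 (-0.11) and Fgf2 (-0.082), and with TMM size factors Nr2f2 (0.00027). Leaving out 1 library at a time did so for Il15 (-0.24 to 0.30), Slc25a33 (-0.0057 to 0.38), Esr1 (-0.036 to 0.18), Nr2f2 (-0.049 to 0.055) and Fgf2 (-0.036 to 0.11). Of the 80 genes checked, none that was called reversed. Hand1, at 0, could not be fitted, and a level under 0.164 to 0.226 CPM was not detectable at this depth.

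The replicate block gave 2174 genes higher and 1838 lower and -0.995 for Hand2 and -0.66 for Hand2os1. Deviations from the group mean correlated at 0.11, -0.052 and 0.0028 for same-numbered libraries. WT replicate 2 correlated best with Pbrm1 cKO replicate 3 (0.11), and WT replicate 3 with Pbrm1 cKO replicate 2 (0.090). Such deviations cancel out within a group, so these values cannot decide whether libraries were paired under any numbering.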
